A study of Homo sapiens with 6 samples.

Results

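The genes described here encode 3 families of proteins that decide which exons enter a messenger RNA: the SR proteins with their relatives TRA2A and TRA2B, the heterogeneous nuclear ribonucleoproteins (hnRNPs), and the CDC2-like kinases (CLKs). They were chosen by symbol alone, as every gene named SRSF with a number, HNRNP with any further letters, TRA2A, TRA2B, or CLK1 to CLK4. This gave 45 of the 24154 genes in the table: 14 SR protein genes (12 SRSF genes and both TRA2 genes), 27 hnRNP genes and 4 CLK genes. Of these, 40 had enough counts to be tested: 13 SR protein, 23 hnRNP and 4 CLK genes.

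The cells were HCT116 per the labels, an established human colorectal carcinoma line. They received for 48 h a negative control siRNA (NC, n = 3 libraries) or an siRNA against CPT2 (siCPT2, n = 3 libraries). CPT2 is carnitine palmitoyltransferase 2, which hands imported fatty acids back to coenzyme A inside mitochondria so that they can be oxidised. Poly(A) RNA was sequenced, and the labels give no other allele, agent or cell line. The comparison asks how transcript levels differ between the siCPT2 and NC libraries. Nothing in the labels tells whether the replicates were separate cultures, and every p-value here therefore reflects only how these libraries vary, which may be technical.

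SR proteins carry RNA recognition motifs and a domain rich in arginine and serine, bind exonic enhancers, and help the spliceosome choose nearby splice sites. HnRNPs coat nascent RNA and often act against them, by binding silencers in exons and introns. CLK kinases phosphorylate the arginine-serine domain in the nucleus and so release SR proteins from nuclear speckles. Many genes of all 3 families splice their own transcripts through exons or introns that trap the RNA in the nucleus or expose it to nonsense-mediated decay, so that a gene-level count does not give the amount of protein-coding transcript. Gene-level counts also say nothing about protein or phosphorylation.

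Total counts were 28353790 to 29449380 per library. Levels are given as CPM, counts scaled to a common library size, with TMM factors, where libraries are compared, and as the authors' FPKM, a value per transcript length, where genes are compared. CPT2 itself, the targeted gene, was counted 709, 881 and 911 times in the NC libraries and 492, 597 and 553 times in the siCPT2 libraries, in the order of replicates 1, 2 and 3. It was 27.1 ± 3.01 CPM in NC and 19.9 ± 1.23 CPM in siCPT2 (SD, n = 3 each), a log2 fold change of -0.44 (SE 0.17) that missed the threshold (adjusted p over all genes 0.338 by edgeR; exact 2-sided permutation p = 0.1, the smallest that 3 against 3 allow). The library siCPT2 replicate 1 stood apart from the other 5 on the first principal component, at 76.6 against -44.6 to 16.03. The share of counts from mitochondrial DNA was 10.002% to 10.8% in NC, while siCPT2 replicates 1, 2 and 3 had 17.0%, 15.6% and 8.99%. Of 11 colorectal epithelial markers, 4 were over 1 FPKM in every library (EPCAM, KRT8, KRT18 and CLDN4) and the other 7 were under 1 FPKM in every library, with CDX1 and CDX2 at 0 throughout. The 11 markers summed to 908 to 1021 FPKM in NC and 952 to 1315 FPKM in siCPT2. Of fibroblast, leukocyte and endothelial markers, 1 of 6 (COL1A1), 1 of 6 (CD68) and 1 of 5 (CDH5) were over 1 FPKM in every library, and the others were under 1 FPKM in every library, with LUM, LYZ and MS4A1 at 0 throughout. These 3 lists summed to 11.03 to 13.5, 10.6 to 11.7 and 22.2 to 27.9 FPKM in NC, and to 12.4 to 17.2, 13.2 to 15.7 and 12.5 to 20.6 FPKM in siCPT2. The part of other cells, of mitochondrial transcripts and of the library that stands apart in any difference between the groups was not tested, except where values without that library are given.

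In the 4 CLK genes the direction of the difference went with base composition, which their coding sequence makes visible. As given further on, this relation was also seen over all genes with a GC content, so it is not particular to CLK genes. The 4 kinases share 8 coding exons of equal length, and the longest of these, the 6th coding exon (exon 7 of 13), has 167 bases in each gene. Its sequence is shown because CLK2 and CLK3, higher in every siCPT2 library, and CLK1 and CLK4, lower on average, fall on opposite sides in base composition. The groups of CLK1 overlapped. Each line gives the exon 5′ to 3′ on the coding strand with G and C in capitals, read from GRCh38 with the GENCODE 29 annotation, at chr2:200857718-200857884 (minus strand) for CLK1, chr5:178613473-178613639 (minus) for CLK4, chr1:155266729-155266895 (minus) for CLK2 and chr15:74625802-74625968 (plus) for CLK3.
CLK1: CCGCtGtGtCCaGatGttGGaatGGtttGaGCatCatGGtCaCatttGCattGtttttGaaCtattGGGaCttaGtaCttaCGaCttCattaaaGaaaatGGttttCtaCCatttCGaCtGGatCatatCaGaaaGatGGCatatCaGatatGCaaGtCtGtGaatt
CLK4: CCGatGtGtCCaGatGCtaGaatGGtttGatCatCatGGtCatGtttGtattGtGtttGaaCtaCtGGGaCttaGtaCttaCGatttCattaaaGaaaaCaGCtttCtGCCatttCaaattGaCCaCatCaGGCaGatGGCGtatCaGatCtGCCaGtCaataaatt
CLK2: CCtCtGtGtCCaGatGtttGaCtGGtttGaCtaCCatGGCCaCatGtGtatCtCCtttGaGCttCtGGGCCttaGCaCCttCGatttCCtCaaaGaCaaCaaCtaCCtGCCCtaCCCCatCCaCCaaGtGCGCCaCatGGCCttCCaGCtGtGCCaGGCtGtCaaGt
CLK3: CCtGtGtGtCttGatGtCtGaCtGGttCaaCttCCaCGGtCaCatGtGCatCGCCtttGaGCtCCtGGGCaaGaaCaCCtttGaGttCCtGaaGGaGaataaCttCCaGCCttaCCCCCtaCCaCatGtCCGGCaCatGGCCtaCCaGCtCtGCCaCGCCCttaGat
G and C make up 37.7% of this exon in CLK1 and 38.9% in CLK4, against 52.7% in CLK2 and 53.3% in CLK3. The exons of CLK1 and CLK4 share 83.8% of their bases by position and those of CLK2 and CLK3 share 76.0%, whereas CLK1 and CLK3 share 59.9%, CLK3 and CLK4 60.5%, CLK1 and CLK2 66.5%, and CLK2 and CLK4 69.5%. Over the whole principal transcript the GC content was 39.04% in CLK1, 38.1% in CLK4, 53.0% in CLK2 and 55.4% in CLK3.

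No splicing regulator passed the test between siCPT2 and NC. In the edgeR fit 0 of the 40 tested genes had an adjusted p under 0.05, where 2 of all 15302 tested genes did (0.0131%). DESeq2 called 0 of the 40 as well, and 17 of 14404 genes (0.118%). At an unadjusted p under 0.05, CLK2 was higher and HNRNPLL lower, 2 of 40, where 14.5% of all genes reached that p in either direction (9.18% higher and 5.29% lower). In bulk RNA, fewer cells with a transcript and less of it per cell cannot be told apart. The adjusted p of the 40 genes in the edgeR fit ran from 0.338 to 0.999. By direction alone, 16 of the 40 were higher and 24 lower in siCPT2, and 49.3% of all genes were lower. The split was 12 higher and 28 lower by library size alone, and 25 and 15 with the GC and length offsets described further on. In the authors' deposited table, all 40 genes carried the call normal. Per its header that call uses cut-offs on a p-value and on the fold change, unlike the adjusted p used here. The share of all genes with that call was not counted.

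Each of the 3 families held genes with higher and genes with lower values. The median log2 fold change was -0.17 over the 13 SR protein genes (5 higher, 8 lower), -0.05 over the 23 hnRNP genes (9 higher, 14 lower) and -0.06 over the 4 CLK genes (2 higher, 2 lower), beside 0.01 over all genes. In 6 genes every siCPT2 library was above every NC library in CPM (CLK2, CLK3, HNRNPAB, HNRNPD, HNRNPL and HNRNPUL2), and in 8 every siCPT2 library was below (CLK4, SRSF1, SRSF6, SRSF10, HNRNPA2B1, HNRNPH3, HNRNPK and HNRNPLL). The share of all genes with such separation was 12.2% in each direction, so 6 and 8 of 40 are read against that background. Without siCPT2 replicate 1 the separated genes were 11 above and 9 below, beside 14.9% and 14.5% of all genes, and the medians were 0.0027 for SR protein, -0.05 for hnRNP and 0.0022 for CLK genes.

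**Figure D1:**
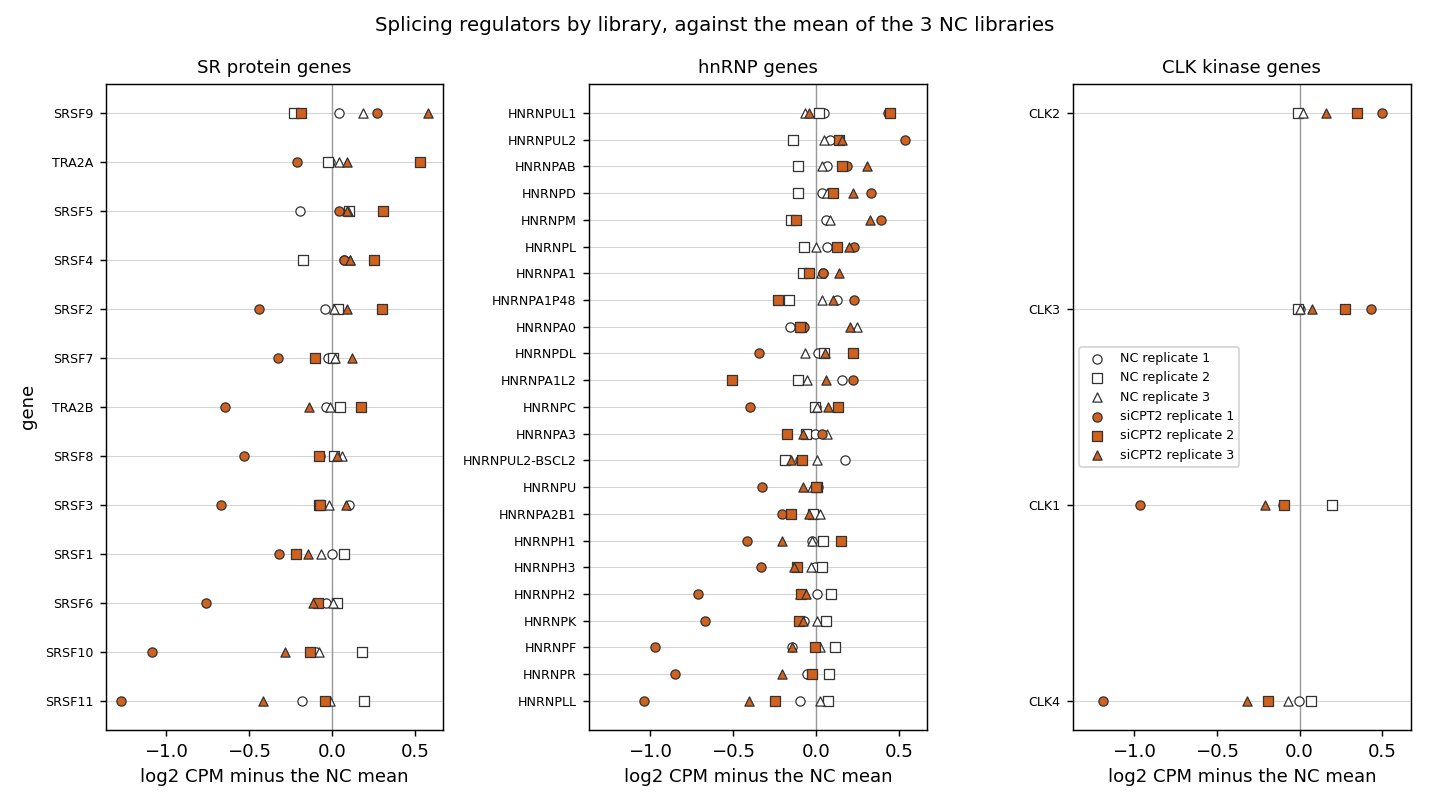
Each tested splicing regulator (rows) in each library, as log2 CPM minus the mean of the 3 NC libraries, with open symbols for NC, filled symbols for siCPT2 and 1 shape per replicate number. SR protein, hnRNP and CLK genes are in separate panels ordered by log2 fold change. The filled circles of siCPT2 replicate 1 lie farthest left in most of the lower rows, and CLK2 and CLK3 lie right of the NC symbols in all 3 siCPT2 libraries.

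CLK2 was higher in every siCPT2 library. CLK2 (ENSG00000176444, chr1:155262868-155278491, minus strand) had 63.7, 63.8 and 65.0 CPM in NC replicates 1, 2 and 3 and 90.6, 81.6 and 71.7 CPM in siCPT2 replicates 1, 2 and 3. The NC libraries lay close together, all siCPT2 values were above them, and the groups did not overlap. The log2 fold change was 0.34 with a 95% interval of 0.01 to 0.67 (SE 0.15, edgeR adjusted p = 0.338). CLK3 (ENSG00000179335, chr15:74598500-74645414, plus strand) had 42.7, 42.2 and 42.7 CPM in NC replicates 1, 2 and 3 and 57.5, 51.5 and 44.9 CPM in siCPT2 replicates 1, 2 and 3. All siCPT2 values were again above all NC values, with replicate 3 closest to them. Its log2 fold change was 0.27 with a 95% interval of -0.09 to 0.62 (SE 0.16, edgeR adjusted p = 0.370). In both genes siCPT2 replicate 1 was the highest library and replicate 3 the lowest of the siCPT2 group.

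The other pair had lower values in siCPT2. CLK1 (ENSG00000013441, chr2:200853009-200864744, minus strand), whose own transcript is a known case of intron retention that is spliced on demand, had 47.7, 58.6 and 48.0 CPM in NC and 26.3, 48.0 and 44.4 CPM in siCPT2. Replicate 1 of siCPT2 was far below every other library, while replicate 2 of siCPT2 reached the lower NC values, so that the groups overlapped. The log2 fold change was -0.38 with a 95% interval of -0.91 to 0.16 (SE 0.24, edgeR adjusted p = 0.390). CLK4 (ENSG00000113240, chr5:178602664-178630615, minus strand), the closest relative of CLK1, had 18.4, 19.3 and 17.5 CPM in NC and 8.06, 16.1 and 14.7 CPM in siCPT2. All 3 siCPT2 libraries were below the NC libraries, and replicate 1 was lowest by far. Its log2 fold change was -0.50 with a 95% interval of -1.09 to 0.08 (SE 0.26, edgeR adjusted p = 0.344). Without siCPT2 replicate 1, the log2 fold changes were 0.25 for CLK2, 0.17 for CLK3, -0.17 for CLK1 and -0.27 for CLK4, with the same signs in smaller sizes.

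Within a library the balance between the kinases can be read as a ratio of counts, which is free of any scaling between libraries and is compared only across libraries, since the genes differ in length. The ratio of CLK2 to CLK4 counts was 3.47, 3.30 and 3.71 in NC replicates 1, 2 and 3, and 11.2, 5.08 and 4.87 in siCPT2 replicates 1, 2 and 3. The ratio of CLK2 to CLK1 was 1.33, 1.09 and 1.35 in NC and 3.45, 1.70 and 1.62 in siCPT2. The ratio of CLK3 to CLK4 was 2.33, 2.19 and 2.43 in NC and 7.13, 3.20 and 3.04 in siCPT2. In each of the 3 ratios the siCPT2 libraries were all above the NC libraries, and replicate 1 was highest. For the ratios over CLK4 this follows from the values above, since CLK2 and CLK3 were above and CLK4 below NC in every siCPT2 library. Each ratio also sets a gene of higher GC content over one of lower GC content. The part of base composition in the ratios was not tested. The ratios were chosen after the values were seen and are given with no test.

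**Figure D2:**
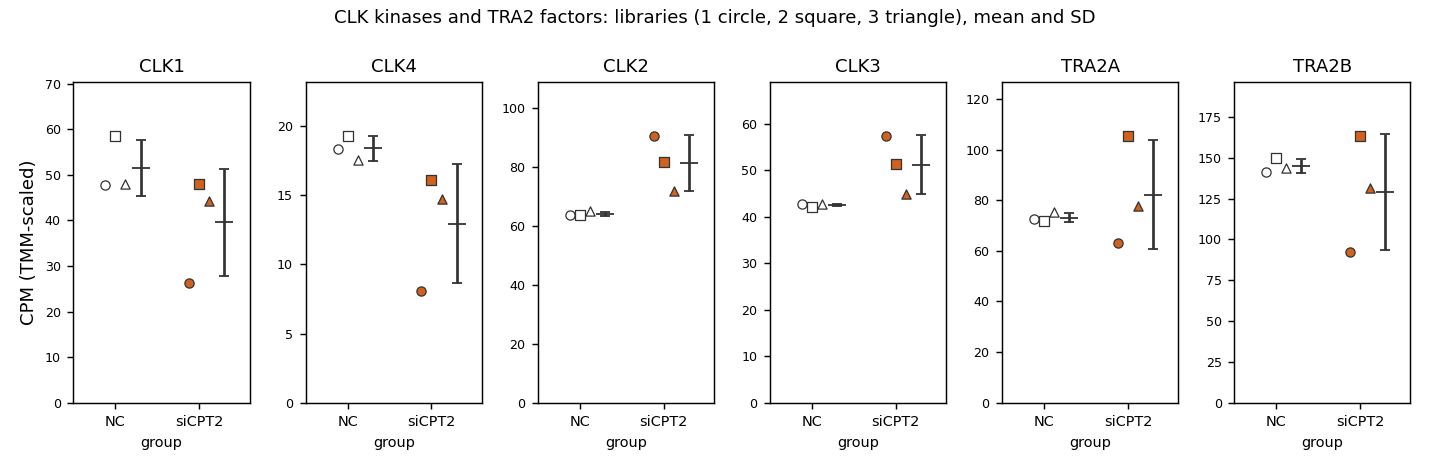
CPM of CLK1, CLK4, CLK2, CLK3, TRA2A and TRA2B (panels, linear axes from 0) in each library of NC (open) and siCPT2 (filled), with the mean and SD of each group at its right (n = 3). CLK2 and CLK3 of siCPT2 sit above the tight NC groups, whereas CLK1, CLK4 and TRA2B are lowest in siCPT2 replicate 1.

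Among the SR proteins, SRSF1 and SRSF10 had lower values in every siCPT2 library. SRSF1 (ENSG00000136450, chr17:58003360-58007346, minus strand), the founding member of the family and a known oncoprotein, had 323, 341 and 309 CPM in NC and 259, 279 and 293 CPM in siCPT2. The groups did not overlap, and the 3 siCPT2 values lay close together. The log2 fold change was -0.23 with a 95% interval of -0.51 to 0.06 (SE 0.12, edgeR adjusted p = 0.357). SRSF10 (ENSG00000188529, chr1:23964804-23980927, minus strand), an SR protein that acts as a general splicing repressor when dephosphorylated, had 206, 249 and 209 CPM in NC and 104, 201 and 181 CPM in siCPT2. Replicate 1 of siCPT2 was the lowest library by a wide gap, and replicate 2 lay just under the lowest NC library. In log2 terms siCPT2 over NC was -0.45 with a 95% interval of -0.98 to 0.08 (SE 0.23, edgeR adjusted p = 0.345), and it was -0.22 without siCPT2 replicate 1 (SRSF1 was then at -0.19).

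SRSF6, which binds exonic enhancers and is known as a proto-oncogene, was below NC in all siCPT2 libraries. It had 155, 162 and 159 CPM in NC and 93.4, 149.6 and 147 CPM in siCPT2. Replicates 2 and 3 lay close under NC and replicate 1 far below. The fitted log2 difference was -0.29 with a 95% interval of -0.72 to 0.14 (SE 0.19, edgeR adjusted p = 0.405), and -0.11 without siCPT2 replicate 1. SRSF11, a relative that works with the U2 snRNP auxiliary factor, had 187, 242 and 210.1 CPM in NC and 87.6, 206 and 159 CPM in siCPT2. Its groups overlapped, since replicate 2 of siCPT2 was within the NC range, and replicate 1 was lower than every other library. SRSF11 had a log2 fold change of -0.50 with a 95% interval of -1.12 to 0.13 (SE 0.28, edgeR adjusted p = 0.357), and one of -0.23 without siCPT2 replicate 1.

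SRSF3, SRSF7 and SRSF8 overlapped between the groups. SRSF3, a small SR protein that also links splicing to RNA export, had 378, 333 and 348 CPM in NC and 221, 335 and 373 CPM in siCPT2. SRSF7, the other export adaptor with a zinc knuckle, had 156, 159 and 159.8 CPM in NC and 126, 147 and 172 CPM in siCPT2. Only siCPT2 replicate 1 left the NC range of SRSF3, whereas the 3 siCPT2 values of SRSF7 lay on both sides of its narrow NC range. SRSF8, a retrogene-derived relative of SRSF2, had 29.05, 30.9 and 32.0 CPM in NC and 21.2, 29.03 and 31.3 CPM in siCPT2. Its low library was again siCPT2 replicate 1. The log2 fold changes of the 3 genes were -0.19 (SE 0.19), -0.09 (SE 0.15) and -0.17 (SE 0.19), and their adjusted p in the edgeR fit were 0.574, 0.723 and 0.594. They were -0.0061, 0.0027 and -0.03 without siCPT2 replicate 1.

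The remaining 4 tested SRSF genes had values around or above NC. SRSF2, which is mutated in myeloid malignancies and binds both C-rich and G-rich enhancers, had 236, 249 and 245 CPM in NC and 179, 299 and 259 CPM in siCPT2. It was lowest in siCPT2 replicate 1 and above NC in the other siCPT2 libraries. SRSF4, a long SR protein with an extended arginine-serine domain, had 138, 116 and 141 CPM in NC and 138, 156 and 141 CPM in siCPT2. SRSF5, a splicing enhancer factor known as insulin-responsive, had 114, 139 and 139 CPM in NC and 134, 161 and 138 CPM in siCPT2. In both, siCPT2 replicate 2 was the highest of all libraries and the rest overlapped. SRSF9, a short relative of SRSF1, had 80.6, 66.9 and 89.1 CPM in NC and 94.4, 68.9 and 117 CPM in siCPT2. Its siCPT2 libraries ran from within the NC range to above it. The log2 fold changes of SRSF2, SRSF4, SRSF5 and SRSF9 were 0.01 (SE 0.19), 0.14 (SE 0.14), 0.14 (SE 0.15) and 0.24 (SE 0.21), with adjusted p of 0.970, 0.563, 0.577 and 0.507 (edgeR). SRSF2 was at 0.19 without siCPT2 replicate 1. SRSF12, the remaining SR gene, was not tested, with 0, 3 and 2 reads counted in NC and 0, 0 and 2 in siCPT2.

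TRA2A and TRA2B, the human homologues of the fly sex-determination factor transformer 2, bind GAA-rich enhancers and regulate each other. TRA2A had 72.5, 71.8 and 75.2 CPM in NC and 63.3, 106 and 77.9 CPM in siCPT2. TRA2B had 141, 149.8 and 144 CPM in NC and 92.6, 164 and 131 CPM in siCPT2. In both genes the siCPT2 libraries bracketed the NC range, with replicate 1 lowest and replicate 2 highest. The log2 fold changes were 0.17 (SE 0.19) and -0.17 (SE 0.20), and the adjusted p 0.616 and 0.632 (edgeR). With siCPT2 replicate 1 left out they were 0.32 and 0.02. The ratio of TRA2B to TRA2A counts was 1.95, 2.09 and 1.91 in NC and 1.46, 1.55 and 1.69 in siCPT2, so that the siCPT2 libraries were all below NC. This ratio too was chosen after its values were seen and has no test.

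HNRNPLL had the lowest log2 fold change of the hnRNP genes. HNRNPLL (ENSG00000143889, chr2:38561978-38603586, minus strand), a paralogue of HNRNPL known from exon choice in activated lymphocytes, had 43.8, 49.3 and 47.8 CPM in NC and 22.8, 39.5 and 35.4 CPM in siCPT2. All siCPT2 libraries were below all NC libraries, with replicate 1 lowest. The log2 fold change was -0.53 with a 95% interval of -1.02 to -0.04 (SE 0.22, edgeR adjusted p = 0.338), and -0.34 without siCPT2 replicate 1. HNRNPL, which binds CA repeats, went the other way, at 263, 239 and 252 CPM in NC and 295, 274 and 289 CPM in siCPT2. Its groups did not overlap either, with a log2 fold change of 0.19 with a 95% interval of -0.09 to 0.46 (SE 0.12, edgeR adjusted p = 0.405). The authors' deposited table lists HNRNPLL at -0.53 on the log2 scale with an unadjusted p of 0.0203, and CLK2 at 0.35 with 0.0342.

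The members with the highest FPKM were HNRNPA2B1, HNRNPA1 and HNRNPK. HNRNPA2B1, which binds UAG motifs and takes part in RNA transport, had 1245, 1237 and 1272 CPM in NC and 1088, 1129 and 1217 CPM in siCPT2. HNRNPA1, the classic antagonist of SRSF1 in splice site choice, had 1521, 1396 and 1507 CPM in NC and 1521, 1429 and 1624 CPM in siCPT2. The siCPT2 values of HNRNPA2B1 lay just under the NC values, and those of HNRNPA1 overlapped them. HNRNPK, which binds C-rich RNA through KH domains, had 689, 753 and 727 CPM in NC and 455, 675 and 685 CPM in siCPT2. Its siCPT2 libraries were below NC, replicate 1 by far the most. The log2 fold changes were -0.13 (SE 0.12), 0.05 (SE 0.13) and -0.26 (SE 0.17), with adjusted p of 0.543, 0.835 and 0.412 in the edgeR fit. HNRNPK was at -0.10 without siCPT2 replicate 1.

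HNRNPR and HNRNPF came next to HNRNPLL in the size of their differences. HNRNPR, a relative of SYNCRIP, had 346, 379.8 and 352 CPM in NC and 199, 354 and 311 CPM in siCPT2. HNRNPF, which binds G tracts as HNRNPH1 does, had 267, 319 and 299 CPM in NC and 150.1, 293 and 266 CPM in siCPT2. In both, siCPT2 replicate 1 was far below all other libraries, replicate 2 lay within the NC range, and replicate 3 lay below the lowest NC library (by a small margin in HNRNPF). Their log2 fold changes were -0.32 (SE 0.20) and -0.32 (SE 0.23), with adjusted p of 0.397 and 0.446 (edgeR). Without siCPT2 replicate 1 they were -0.12 and -0.08.

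The other hnRNP genes had log2 fold changes from -0.26 to 0.30, none past the test (edgeR, adjusted p from 0.350 to 0.999). The G-tract binders HNRNPH2, HNRNPH3 and HNRNPH1 were at -0.26, -0.19 and -0.14. The scaffold protein HNRNPU was at -0.13 and the readthrough gene HNRNPUL2-BSCL2 at -0.12, followed by HNRNPA3 at -0.07, HNRNPC, which guards against the use of Alu exons, at -0.05, HNRNPA1L2 at -0.05 and HNRNPDL at -0.00044. On the other side were HNRNPA0 at 0.01, HNRNPA1P48 at 0.04, HNRNPM at 0.21, HNRNPD (AUF1, which binds AU-rich elements) at 0.22, HNRNPAB at 0.22, HNRNPUL2 at 0.29 and HNRNPUL1 at 0.30. Among these, HNRNPD had 249, 225 and 254 CPM in NC and 305, 260.5 and 283 CPM in siCPT2. HNRNPUL2 had 192, 165 and 187 CPM in NC and 263, 199.5 and 202 CPM in siCPT2. The groups of both did not overlap, with the highest value in siCPT2 replicate 1. Without that library HNRNPUL2 was at 0.14, HNRNPM at 0.11, HNRNPU at -0.05, HNRNPH2 at -0.09 and HNRNPH1 at -0.02, while HNRNPA3 was at -0.13, HNRNPA1L2 at -0.21, HNRNPA0 at 0.04, HNRNPDL at 0.13, HNRNPC at 0.09 and HNRNPA1P48 at -0.07. HNRNPCL1 and HNRNPCL2 had no count in any library, HNRNPCL3 had 2 counts in siCPT2 replicate 3 only, and HNRNPCL4 had 1 and 2 counts in NC replicates 2 and 3 only. These 4 HNRNPC-like genes were not tested.

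Per transcript length, the highest levels were those of hnRNP genes, and the 4 kinases lay in the lower part of the order. On the authors' FPKM scale HNRNPA2B1 was at 631 ± 15.9 in NC and 503 ± 68.3 in siCPT2 (SD, n = 3 each here and below), and HNRNPA1 at 525 ± 53.0 and 494 ± 56.6. HNRNPK and HNRNPH1 followed at 275 ± 24.6 and 268 ± 10.7 FPKM in NC, which do not differ beyond their spread, and HNRNPC at 247 ± 9.09. SRSF3, SRSF2 and SRSF1 led the SR proteins at 117 ± 9.21, 113 ± 7.84 and 106 ± 6.88 FPKM in NC, again not apart beyond their spread. CLK2 and CLK1 were at 30.7 ± 0.789 and 28.9 ± 3.75 FPKM in NC, CLK3 at 15.5 ± 0.617 and CLK4 at 7.25 ± 0.475, the lowest of the 40. In siCPT2, CLK2 was at 35.5 ± 2.08 FPKM and CLK1 at 20.7 ± 7.46. The summed FPKM of the SR protein genes was 852.5, 967.8 and 930.3 in NC replicates 1, 2 and 3 and 553, 907.7 and 864.6 in siCPT2 replicates 1, 2 and 3, and only siCPT2 replicate 1 lay under the NC range. The hnRNP genes summed to 3422, 3580.0 and 3474 FPKM in NC and 2629, 3261 and 3415 in siCPT2, so that all 3 siCPT2 libraries lay below NC, replicate 3 by little. This rests on the FPKM scale, on which the median of all genes was also below 0 (-0.07 on log2(FPKM + 1)). In TMM-scaled CPM the tested hnRNP genes summed to 9200.9, 9059 and 9270.5 in NC. They summed to 8359, 9198.8 and 9311.9 in siCPT2, where only replicate 1 lay below NC. The CLK genes summed to 78.7, 87.7 and 81.02 FPKM in NC and 70.7, 88.7 and 78.2 in siCPT2, which overlap.

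**Figure D3:**
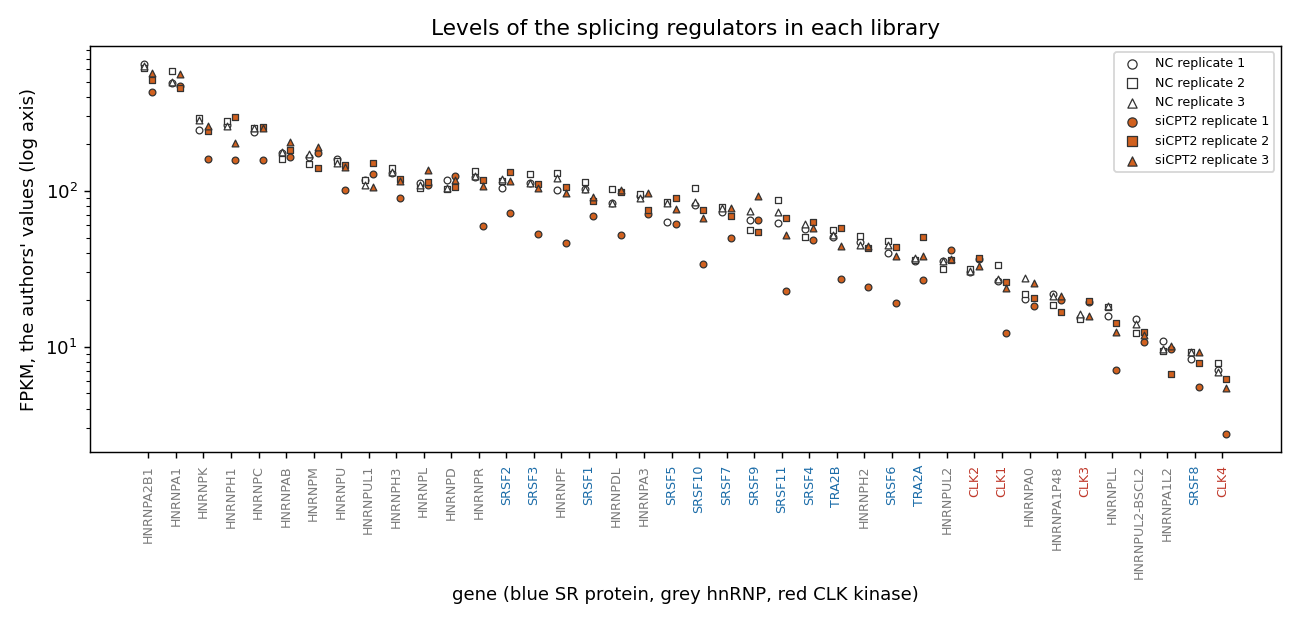
The authors' FPKM (log axis) of the 40 tested splicing regulators in each library, ordered by mean level, with open symbols for NC, filled for siCPT2 and 1 shape per replicate number. Gene names are blue for SR proteins, grey for hnRNPs and red for CLKs. HNRNPA2B1 and HNRNPA1 lead and CLK4 is lowest, and siCPT2 replicate 1 (filled circles) is the lowest point of many genes.

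One library held most of the low values. In CPM, 23 of the 40 genes had their lowest value of all 6 libraries in siCPT2 replicate 1, 3 in siCPT2 replicate 2 and 0 in siCPT2 replicate 3. The highest value lay in siCPT2 replicate 1 for 8 genes, in replicate 2 for 9 and in replicate 3 for 4. The share of all genes with their lowest or highest value in a given library was not counted. Below every NC library were 23 genes in siCPT2 replicate 1 (42.7% of all genes were), 13 in replicate 2 (26.7%) and 16 in replicate 3 (35.2%). Above every NC library were 11 genes in siCPT2 replicate 1 (42% of all genes), 15 in replicate 2 (27%) and 15 in replicate 3 (37.4%). In NC, replicate 2 held the lowest value of 10 genes and the highest of 12. Counts of the 45 genes together were 1.19%, 1.22% and 1.25% of the total in NC replicates 1, 2 and 3 and 0.891%, 1.16% and 1.17% in siCPT2 replicates 1, 2 and 3. With TMM scaling the 40 tested genes summed to 11588, 11553 and 11702 CPM in NC and 10154, 11696 and 11708 CPM in siCPT2, which puts replicates 2 and 3 at the NC level. The 11 genes of the RNA quality list found in the table, transcripts that stay in the nucleus or keep introns (such as OGT and NKTR), were lower in the same library, and 5 of the listed genes are also counted among the SR-related factors below. Their median log2 CPM minus the NC mean was -0.16, 0.21 and -0.02 in NC replicates 1, 2 and 3 and -0.66, -0.10 and -0.31 in siCPT2 replicates 1, 2 and 3. Of these 11, 10 were lower and 1 higher in siCPT2 and 0 passed the test (edgeR; 3 had an unadjusted p under 0.05, and DESeq2 called 0), with a median log2 fold change of -0.31. Their summed FPKM was 390.02 to 528 in NC and 256 to 411 in siCPT2. The part of RNA quality in the members' values was not tested.

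The direction of a splicing regulator went with the base composition of its transcript. Across the 40 genes the log2 fold change correlated with the GC content of the principal transcript at Pearson r = 0.68 and Spearman rho = 0.67. This is a correlation across genes that share the same 6 libraries, and genes are not independent replicates. Of 21 genes under 45% GC, 17 were lower in siCPT2 and 4 higher (HNRNPA0, HNRNPA1, HNRNPD and TRA2A, of which the former pair was below 0 by library size alone), with a median of -0.19. Of 19 genes over 45% GC, 12 were higher and 7 lower, with a median of 0.14. The same held over all genes with a GC content, at r = 0.63 and rho = 0.69 (n = 13207), with medians of -0.33 under and 0.17 over 45% GC, so the relation is not particular to splicing regulators. For the 40 genes rho was 0.68 in siCPT2 replicate 1, 0.33 in replicate 2 and 0.41 in replicate 3, each against the NC mean, and 0.44, -0.43 and 0.24 in NC replicates 1, 2 and 3. Without siCPT2 replicate 1, rho of the log2 fold change was 0.52.

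**Figure D4:**
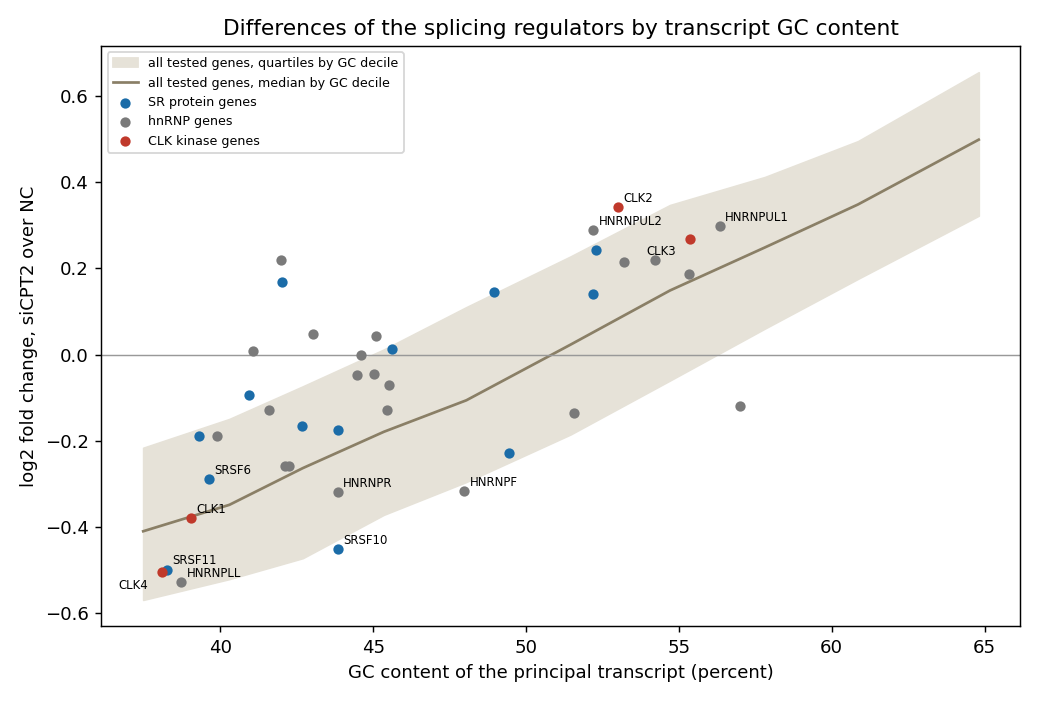
Log2 fold change (siCPT2 over NC, edgeR) of the 40 splicing regulators against the GC content of the principal transcript in percent, with SR protein genes blue, hnRNP genes grey and CLK genes red. The line and band give the median and quartiles of all tested genes by GC decile. CLK1, CLK4, SRSF11 and HNRNPLL lie at the low GC end with negative values, and CLK2, CLK3 and HNRNPUL1 at the high end with positive values.

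When each library was given offsets for transcript GC content and length in the edgeR fit, 11 of the 40 genes turned sign. Such offsets also remove any difference between the groups that itself goes with GC content or length. The family medians became 0.11 for SR protein genes (9 higher, 4 lower), 0.03 for hnRNP genes (14 higher, 9 lower) and -0.08 for CLK genes (2 higher, 2 lower), and the median of all genes was 0.0031. No member passed with offsets, where 3 of 13207 genes did (0.0227%). At an unadjusted p under 0.05 there were 7 of the 40 with offsets (SRSF1, SRSF10, TRA2A, HNRNPD, HNRNPDL, HNRNPU and HNRNPUL2), beside 12% of all genes. The genes under 45% GC then had a median of 0.09 and those over 45% one of 0.04. CLK2 was at 0.19, CLK3 at 0.04, CLK1 at -0.20 and CLK4 at -0.23, all nearer to 0 than without offsets. HNRNPLL came to -0.12, SRSF11 to -0.14 and SRSF6 to 0.11.

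SRSF1 lay further from 0 with these offsets and SRSF10 nearly where it was without them. With offsets, SRSF1 was at -0.43, -0.28 and -0.34 in siCPT2 replicates 1, 2 and 3 and at -0.06, 0.15 and -0.09 in NC replicates 1, 2 and 3, as log2 CPM minus the NC mean. SRSF10 was at -0.83, -0.19 and -0.34 in siCPT2 and at -0.12, 0.19 and -0.07 in NC. In both genes the siCPT2 libraries stayed below all NC libraries. The log2 fold changes with offsets were -0.35 (SE 0.10) for SRSF1 and -0.43 (SE 0.15) for SRSF10, each with an adjusted p of 0.397 (edgeR). With siCPT2 replicate 1 also left out they were -0.32 and -0.28. With offsets, CLK1 and CLK4 were the other members below all NC libraries, so that 4 of 40 were, beside 10.3% of all genes. HNRNPD, HNRNPDL, HNRNPUL2 and TRA2A were above all NC libraries, also 4 of 40, beside 8.59% of all genes. HNRNPD was at 0.56 with offsets, with an adjusted p of 0.404 (edgeR), and 1 library carried much of it: siCPT2 replicates 1, 2 and 3 were at 1.004, 0.11 and 0.39 against the NC mean. With siCPT2 replicate 1 also left out HNRNPD was at 0.24, beside 0.30 for HNRNPA0 and 0.30 for TRA2A.

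**Figure D5:**
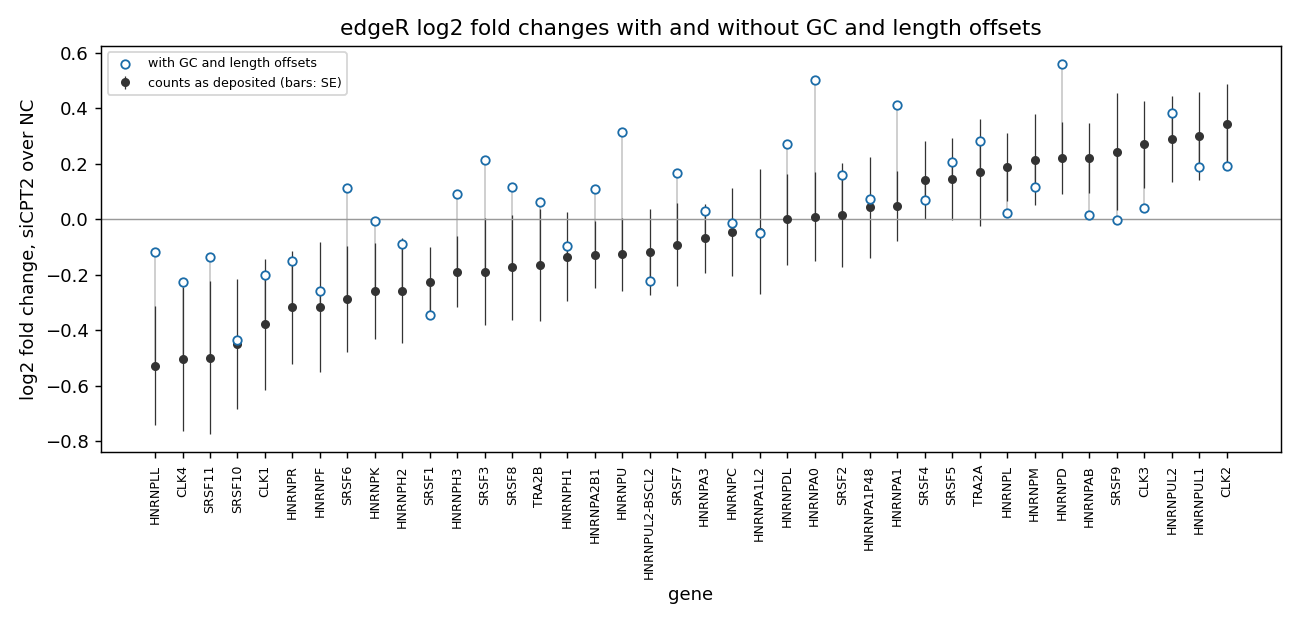
EdgeR log2 fold changes (siCPT2 over NC) of the 40 splicing regulators, ordered by the value from the counts as deposited (filled, bars are SE), with the value under GC and length offsets (open) joined to it. SRSF10 hardly moves and SRSF1 goes further below 0, while HNRNPU, SRSF3 and SRSF6 cross from below to above 0.

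The wider splicing machinery was counted from lists of known factors, and 0 of the listed genes passed the test in edgeR or in DESeq2. At an unadjusted p under 0.05 (edgeR) there were 8 of 47 core spliceosome genes and 3 of 21 SR-related factors. The count was 3 of 17 for kinases and partners, 4 of 45 rows for other RNA-binding regulators and 1 of 15 for decay factors. Over all genes the share was 14.5%. Of 47 core spliceosome genes 32 were higher and 15 lower, with a median of 0.17. The smallest p were those of SF3A2, a subunit of the U2 snRNP, at 0.93 (SE 0.27), SNRPA, a protein of the U1 snRNP, at 0.71 (SE 0.21), and BUD31 at 0.53 (SE 0.18), each with an adjusted p of 0.338 (edgeR). Of 21 other SR-related factors 6 were higher and 15 lower, with a median of -0.23, led by SCAF8 at -0.61, LUC7L at 0.43 and SCAF1 at 0.55. Of 17 kinases, phosphatase subunits and import factors of SR proteins 5 were higher and 12 lower, with a median of -0.42. HIPK1 was at -0.83 (SE 0.26), SRPK1, the main cytoplasmic SR protein kinase, at -0.44 (SE 0.19), and CDK11A at 0.36 (SE 0.15), each with an adjusted p of 0.338 (edgeR).

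Of 45 tested rows of other RNA-binding splicing regulators, 20 were higher and 25 lower, with a median of -0.05. RALY was at 0.45 and RBM10 at 0.44. MATR3 has a pair of rows in the table, at -0.41 and -1.77, and both are counted among the 45. Their reads may have been split between overlapping genes, so the value of MATR3 is uncertain. The row at -1.77 had 201, 258 and 1171 counts in NC and 81, 191 and 156 in siCPT2, so that NC replicate 3 carried much of it. Of 15 factors of nonsense-mediated decay, the pathway that clears transcripts with poison exons, 4 were higher and 11 lower, with a median of -0.11. SMG9 was at 0.50, SMG1 at -0.57 and UPF2 at -0.49. With GC and length offsets the medians became 0.10 for the core spliceosome, 0.07 for other SR-related factors, -0.07 for the kinases and partners, -0.03 for the other RNA-binding regulators and -0.10 for decay factors. Without siCPT2 replicate 1 and without offsets they were 0.13, -0.07, -0.24, 0.0051 and -0.11, and that of the RNA quality list was -0.20.

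Some members cannot be told apart from their neighbours or copies in these counts. HNRNPA1, HNRNPA1L2 and HNRNPA1P48 are near-identical copies whose reads the counting could have split. HNRNPL, HNRNPH2, SRSF1, HNRNPUL2 and HNRNPUL2-BSCL2 share exonic sequence with another gene on the same strand, and 8 members (CLK3, SRSF2, SRSF9, HNRNPA2B1, HNRNPAB, HNRNPH3, HNRNPU and HNRNPUL1) with a gene on the opposite strand. The library preparation names no strand marking and whether the counting used strand is not given in these sources. When genes overlapping on the same strand were summed, each sum was fitted as a whole and all its genes took its value. The sum holding HNRNPL was at 0.32 (HNRNPL alone 0.19) and that holding SRSF1 at -0.19 (alone -0.23). The sum holding HNRNPH2 was at 0.17 (alone -0.26). HNRNPUL2 and HNRNPUL2-BSCL2 fell in the same sum, at 0.26, beside 0.29 and -0.12 alone. Such a sum does not give the sign of HNRNPH2 or HNRNPUL2-BSCL2 on its own.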

How the data were processed

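Libraries were made from oligo(dT)-selected, fragmented RNA with random hexamer priming, and no strand marking is named, per the labels' protocols. For each gene and library the deposited values are raw counts, not normalized, and FPKM (so named in the headers), with no statement of the gene models or library sizes behind them. The authors' own comparison is deposited beside them as a p-value, a log2 fold change and a call. The submitters' processing notes name GRCh38, and as tools edgeR, DESeq2, StringTie, HISAT2, Bowtie2 and TopHat2, with no version. The labels name no batch.

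After 17 stray lines were left out, 24154 genes remained, of which 4180 were the authors' unnamed loci (5.32% to 7.18% of counts). They stayed in library sizes and tests. The counts were fitted by edgeR 4.0.16 under R 4.3.3 (filterByExpr, 15302 genes kept, TMM, robust quasi-likelihood F-test, Benjamini-Hochberg over all tested genes, threshold 0.05). Alternatives were DESeq2 1.42.0, RLE factors, library size alone, no filter, the replicate number as a block, and each library left out. Further ones were GC and length offsets, limma-trend (limma 3.58.1) on log2(FPKM + 1), and summed same-strand overlapping genes. The offsets came from a loess (span 0.5) in each library on GC content and length of the GENCODE 29 principal transcript. It was fitted to log2 CPM minus the mean of the gene over all libraries. Offsets without siCPT2 replicate 1 were added after seeing the data. Log2 CPM used a prior count of 2. Exon sequences are from GRCh38. In simulated data with 15082 genes for this comparison, 87.9% of the 4-fold changes were called by edgeR, against 43.1% at 2-fold and 4.62% at 1.5-fold.

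The members and lists were chosen with earlier results of these data known. Every member is named. Values by library are given for tested SRSF, TRA2 and CLK genes and for hnRNP genes with an unadjusted p under 0.05, the 3 highest FPKM or the 3 largest fold changes. Values by library of HNRNPL, HNRNPD and HNRNPUL2 were added after they were seen. Of each list, up to 3 genes with the smallest p are named.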

Additional observations from a re-analysis of the deposited data

How the results depend on the processing

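No splicing regulator passed under 15 of 16 alternatives. The exception was offsets with the replicate block, with 2 calls (SRSF1 at -0.34, adjusted p = 0.0439, and SRSF10 at -0.45, adjusted p = 0.0213; edgeR), where 3.21% of all genes were called. Same-numbered libraries correlated at 0.25, 0.36 and 0.0065 in their deviations from the group means. Libraries of unlike number correlated at -0.32 to 0.091. The labels do not say whether the numbers pair the samples, and these values do not settle it. The number of all genes called was 17 by DESeq2, 633 with the replicate block (4.14%), 424 with offsets and block, 4 with offsets without siCPT2 replicate 1, 0 on FPKM, 0 with overlapping genes summed, and 1 to 5 with a library left out; no member was called in any of the latter (0 to 0).

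The SR protein median was 0.11 with offsets, 0.11 with offsets and block, 0.09 with offsets without siCPT2 replicate 1, and -0.23 to 0.0027 with a library left out. The hnRNP median was -0.19 by library size alone, 0.028 with offsets, 0.022 with offsets and block, -0.19 on FPKM, 0.0051 with overlapping genes summed, -0.0010 with offsets without siCPT2 replicate 1, and -0.12 to -0.044 with a library left out. The CLK median was -0.19 by library size alone and -0.14 to 0.0022 with a library left out. Library size alone shifted the median of all genes by -0.14.

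Signs turned in 22 members and in no alternative for the other 18. By library size alone HNRNPA0 was at -0.13, HNRNPA1 at -0.090, HNRNPA1P48 at -0.10 and SRSF2 at -0.11. On FPKM HNRNPA0 was at -0.11, HNRNPA1 at -0.088, HNRNPA1P48 at -0.089, SRSF2 at -0.12, SRSF4 at -0.0046 and SRSF5 at -0.026. Without a filter HNRNPA0 was at -0.0049, with the block SRSF2 was at -0.017, and with genes summed HNRNPDL was at 0.0051. The sums holding HNRNPH2 and HNRNPUL2-BSCL2 were at 0.17 and 0.26, which are values of the summed genes together. With offsets, and then with offsets and block, HNRNPA2B1 was at 0.11 and 0.098, HNRNPA3 at 0.028 and 0.0068, HNRNPDL at 0.27 and 0.27, HNRNPH3 at 0.091 and 0.072, HNRNPU at 0.32 and 0.30, SRSF3 at 0.21 and 0.21, SRSF6 at 0.11 and 0.11, SRSF7 at 0.17 and 0.15, SRSF8 at 0.11 and 0.11, SRSF9 at -0.0030 and -0.015, and TRA2B at 0.061 and 0.060. With offsets without siCPT2 replicate 1, HNRNPA1P48 was at -0.14, HNRNPC at 0.040, HNRNPDL at 0.26, HNRNPU at 0.17, SRSF3 at 0.17, SRSF6 at 0.066, SRSF7 at 0.064, SRSF8 at 0.10 and TRA2B at 0.089. With each library left out in turn HNRNPA0 ran from -0.095 to 0.14, HNRNPA1L2 from -0.21 to 0.14, HNRNPA1P48 from -0.068 to 0.16, HNRNPC from -0.15 to 0.093, HNRNPDL from -0.14 to 0.13, SRSF2 from -0.16 to 0.19, SRSF7 from -0.21 to 0.0027, TRA2A from -0.058 to 0.32 and TRA2B from -0.38 to 0.016. The cause was not tested. A difference of 1.5-fold was rarely called at this number of libraries in simulated data (4.62%), so a p above the threshold does not show that levels were equal.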
